A study of Mus musculus with 42 samples.

Results

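Genes of protein folding, translocation, degradation and stress signalling in the endoplasmic reticulum (ER) were followed over the day in the livers of pubertal mice fed a standard or a high-fat diet. They are 38 genes of 54532 in the table of read counts, taken by symbol from a list chosen with earlier results of these data known. They fall into 16 chaperones and folding enzymes, 7 genes of ER-associated degradation, 6 sensors and transcription factors of the unfolded protein response and 9 genes of the translocon. All 38 reached a mean of 25 counts or more and entered every test. For Ddit3 the table holds 2 identifiers, and the one with more counts was used. The mice were female C57BL/6NHsd (labelled C57BL/6) and were fed from weaning for 3 weeks with the AIN93G standard diet, in which soybean oil supplied 16% of energy, or with a modified AIN93G high-fat diet (HFD) with 45% of energy from soybean oil. Mice of both diets were housed in groups and killed without fasting every 4 h at 7 times of day, given as Zeitgeber time (ZT), from ZT 0, when lights came on, through ZT 12, when they went off, to ZT 24. Each of the 14 groups of diet and time point held 3 libraries from 3 mice.

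Messenger RNA was sequenced to between 14592481 and 21368409 counted reads per library, and levels are given here as CPM, the count scaled to the effective library size. Albumin (Alb) was above 10000 CPM in 32 libraries. In the other 10 it was between 11.7 and 67.0 CPM, and Adipoq, an adipocyte hormone, was between 883.5 and 1997 CPM, against at most 5.59 CPM in the liver libraries. These 10 are labelled liver but are called adipocyte-rich here. On AIN93G every library of ZT 16 and of ZT 20 (6 in all) was among them, as were replicates 1 and 2 of ZT 24 on each diet, so the standard diet had no liver library at ZT 16 or ZT 20. Clock genes also went against the label of some libraries. At ZT 12, replicates 2 and 3 of AIN93G and replicate 3 of the HFD had Dbp, an output gene of the clock, at 0.142 to 0.404 CPM and Arntl, which encodes BMAL1, at 42.5 to 51.6 CPM, in or near the ranges at ZT 0 (0.282 to 0.941 and 43.8 to 51.2 CPM). The other 3 libraries of ZT 12 had Dbp at 70.1 to 114 CPM and Arntl at 1.04 to 1.98 CPM. Replicate 2 of AIN93G and replicate 3 of the HFD at ZT 12 are also labelled as light phase, and counts of calls, fitted peaks and the places of the lowest and highest means that use ZT 12 are therefore also given without it.

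Proteins for secretion enter the ER through the Sec61 channel, fold there with the help of chaperones and disulfide isomerases, and are returned to the cytosol for degradation when they fail to fold. When unfolded protein accumulates, the sensors IRE1 (encoded by Ern1), PERK (Eif2ak3) and ATF6 raise the transcription of chaperone and degradation genes through the factors XBP1, ATF4 and cleaved ATF6. Hepatocytes secrete most plasma proteins and keep a large rough ER, and in liver these genes are known to respond to feeding and to the time of day.

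A known target sequence of ATF6 and XBP1 is the ER stress response element (ERSE), found in promoters of some ER chaperone genes and written CCAAT, then 9 bases of any kind, then CCACG. It was searched on both strands of RefSeq promoter sequences (build GRCm38.p6) that run from 250 bases before to 50 bases after the start site, and 31 of the 38 genes had such a sequence. The element was found in 9 of them, Hspa5, Hsp90b1, Calr, Canx, Pdia6, Creld2, Dnajc3, Syvn1 and Derl3, against 0.137% of the 27025 gene symbols with a promoter in the table. Hsp90b1 held 2 copies and the other 8 genes 1 each. A variant, ERSE-II (ATTGG, 1 base, CCACG), was found in Herpud1 and Dnajb11 and in 0.0444% of all symbols, and neither of these genes held an ERSE. The core of another XBP1 element, TGACGTGG, and the element of ATF4 and C/EBP, TGATGNAAN, were found in none of the 31, against 0.714% and 2.43% of all symbols. Such a match is a run of letters and not a measured binding site. The ERSE is known from promoters of ER chaperone genes, so its share among the listed genes is not an independent result. The 6 genes with an ERSE and the lowest p for time of day on the HFD are shown, with Herpud1 for the variant, from 5′ to 3′ on the strand of the gene, and capitals mark the motif. In Creld2 and Calr the motif lies on the opposite strand and is read here as its reverse complement.
Syvn1: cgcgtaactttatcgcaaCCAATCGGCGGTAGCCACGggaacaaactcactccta
Hspa5: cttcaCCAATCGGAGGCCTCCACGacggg
Creld2: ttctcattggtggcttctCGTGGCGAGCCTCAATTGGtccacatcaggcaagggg
Pdia6: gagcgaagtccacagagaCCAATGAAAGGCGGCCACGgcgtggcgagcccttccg
Dnajc3: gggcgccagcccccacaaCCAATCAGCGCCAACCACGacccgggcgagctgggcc
Calr: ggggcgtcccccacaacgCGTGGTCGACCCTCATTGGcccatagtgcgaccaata
Herpud1: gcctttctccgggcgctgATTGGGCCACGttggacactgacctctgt

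These stretches lie at chr19:6046514-6046568 (plus strand) for Syvn1, chr2:34772020-34772048 (plus strand) for Hspa5, chr15:88819502-88819556 (plus strand) for Creld2, chr12:17266473-17266527 (plus strand) for Pdia6, chr14:118937809-118937863 (plus strand) for Dnajc3, chr8:84847057-84847111 (minus strand) for Calr and chr8:94386359-94386405 (plus strand) for Herpud1. All are upstream of the RefSeq start site. The stretch of Hspa5 also lies within the longer span of that gene in the deposited table, and only 29 bases of it are shown. The motif ended 26 bases before the start site in Syvn1, 47 bases before it in Hspa5 and 42 bases before it in Herpud1, and 144 bases before it in Calr.

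Levels ranged widely within each role. Per kilobase of the gene length given in the table, the mean over the 30 liver libraries of ZT 0 to ZT 20 was highest for P4hb, the disulfide isomerase PDI, at 518 CPM per kilobase. Calr (calreticulin, a lectin chaperone) followed at 294, Hspa5 (BiP, the main Hsp70 of the ER) at 281 and Hsp90b1 (GRP94, the Hsp90 of the ER) at 245 CPM per kilobase. Erp29 was the lowest chaperone at 5.85, and the others lay between 31.4 (Dnajb9) and 197 CPM per kilobase (Pdia3). The transcription factor genes Xbp1 and Atf4 were at 80.3 and 42.6 and Ddit3 at 5.66. Translocon genes lay between 12 (Ssr1) and 67.8 (Ssr3). Of the sensor genes, Ern1 was at 13.7, Atf6 at 10.4 and Eif2ak3 at 3.83 CPM per kilobase, and Derl3, a derlin known from plasma cells and other secretory cells, was lowest at 2.18. Differences between genes in this order were not tested. How the gene length of the table was counted is not given in the sources used here.

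**Figure D1:**
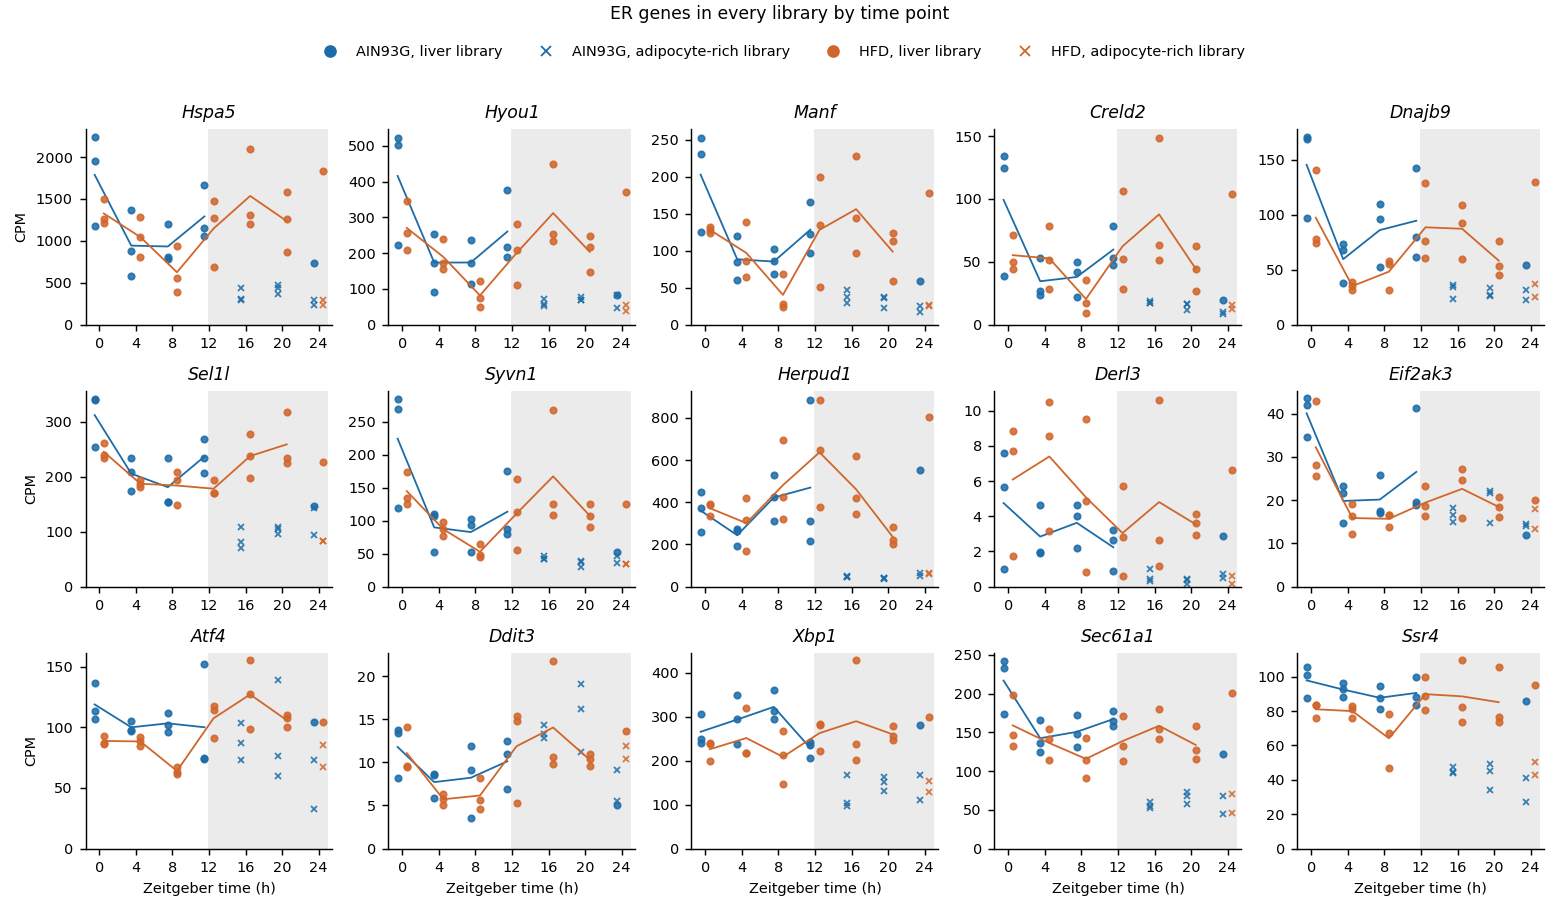
Level of 15 ER genes in every library, in CPM (vertical axis, from 0), against Zeitgeber time in hours; lines join the means of the liver libraries of a diet, crosses are adipocyte-rich libraries and the grey area is the dark phase. Hspa5, Hyou1, Manf and Syvn1 were high at ZT 0, low at ZT 8 and high again at ZT 16 on the HFD, and the adipocyte-rich libraries lay below the liver libraries for Herpud1 and Sec61a1 but not for Ddit3.

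Of the 16 chaperone genes, 8 fell from the start to the later part of the light phase. Between ZT 0 and ZT 8, over both diets, 13 of the 38 genes fell and none rose at an adjusted p under 0.05 (edgeR quasi-likelihood test, Benjamini-Hochberg over 13394 genes), against 4.23% of all genes tested that fell and 4.14% that rose. The median log2 fold change was -0.39 for the 38 genes and 0.00 for all genes, and 35 of the 38 had a negative value, against 49.4% of all genes. By role, 8 of 16 chaperones and folding enzymes fell, 3 of 7 degradation genes, 1 of 6 sensors and factors and 1 of 9 translocon genes; no role was tested as a whole.

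Among the chaperones, Hspa5 was at 1176, 1953 and 2233 CPM in the 3 AIN93G libraries of ZT 0 and at 1215, 1260 and 1505 CPM in those of the HFD. At ZT 8 it was at 1207, 809 and 782 CPM on AIN93G and at 933, 392 and 551 CPM on the HFD. The highest library of ZT 8 reached into the lower end of ZT 0, while the means were 1557 ± 439.5 and 779 ± 286 CPM (SD, n = 6 each; log2 fold change -1.01 with an SE of 0.24, adjusted p = 0.0143). Hyou1 (GRP170), which exchanges the nucleotide of BiP, was at 222, 502 and 522 CPM on AIN93G and 257, 208 and 345 CPM on the HFD at ZT 0. Its values of ZT 8 were 236, 171 and 114 CPM on AIN93G and 122, 48.9 and 73.8 CPM on the HFD, a fall of 2.81-fold (adjusted p = 0.00523). Its HFD libraries of ZT 8 were all below every library of ZT 0.

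Manf, a secreted protein of the ER that binds BiP, fell 2.75-fold, from 124 to 252 CPM at ZT 0 to 23.9 to 102 CPM at ZT 8, with no overlap (log2 fold change -1.46 with an SE of 0.30, adjusted p = 0.00622). Creld2, a disulfide isomerase induced by ER stress, fell 2.66-fold (adjusted p = 0.024) and Sdf2l1, a partner of the ER J proteins, fell 2.43-fold (adjusted p = 0.0177). The J proteins Dnajb9 (ERdj4) and Dnajb11 (ERdj3), which hand clients to BiP, fell 1.84-fold (adjusted p = 0.038) and 1.56-fold (adjusted p = 0.0202). The disulfide isomerase Pdia4 fell 1.85-fold (adjusted p = 0.00771). The other 8 did not pass, and their log2 fold change was -0.14 for P4hb, -0.14 for Canx (calnexin), -0.29 for Pdia3 (ERp57), -0.40 for Hsp90b1 and -0.44 for Calr. It was -0.46 for Pdia6, an isomerase, -0.39 for Dnajc3, also called P58IPK, and -0.37 for Erp29, a thioredoxin-like chaperone.

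Of the degradation genes, Syvn1, the ubiquitin ligase HRD1, was at 119.8, 269.7 and 284 CPM on AIN93G and 126, 135 and 174 CPM on the HFD at ZT 0. At ZT 8 it was at 102, 93.8 and 52.2 CPM on AIN93G and 65, 45 and 48.4 CPM on the HFD, all below the lowest library of ZT 0 (log2 fold change -1.45 with an SE of 0.28, adjusted p = 0.00346). Its partner Sel1l fell 1.51-fold, from 234 to 342 CPM to 149 to 234 CPM, which overlapped by a narrow margin (adjusted p = 0.00486). Edem1, which picks misfolded glycoproteins, fell 1.36-fold, from 335, 396 and 431 CPM on AIN93G and 305, 283 and 329 CPM on the HFD to 264, 230.4 and 250.3 CPM and 269, 201 and 299.6 CPM (adjusted p = 0.0119). The derlins Derl1 and Derl2, members of the retrotranslocation complex, had log2 fold changes of -0.07 and -0.06 with 95% intervals from -0.23 to 0.09 and from -0.28 to 0.16. Herpud1, an ER membrane protein of the same complex, had a value of 0.30 (adjusted p = 0.606), opposite in sign to its partners.

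Among sensors and factors, Eif2ak3 (PERK) was at 34.6, 42.1 and 43.7 CPM on AIN93G and 28.1, 25.6 and 43 CPM on the HFD at ZT 0. Its values of ZT 8 were 25.8, 17 and 17.6 CPM on AIN93G and 13.8, 16.6 and 16.6 CPM on the HFD. Replicate 1 of AIN93G at ZT 8 just exceeded the lowest library of ZT 0, and the fall was 2.02-fold (log2 fold change -1.01 with an SE of 0.19, adjusted p = 0.00341). Ern1 did not pass (-0.42, adjusted p = 0.054), nor did Ddit3, the stress factor CHOP (-0.68, adjusted p = 0.13), or Atf4 (-0.33, adjusted p = 0.133). Atf6 and Xbp1 had values near 0, -0.05 and 0.08, with 95% intervals from -0.34 to 0.24 and from -0.20 to 0.37. Spliced Xbp1 cannot be told from unspliced in counts per gene. Sec61a1, the channel subunit, was at 174, 243 and 234 CPM on AIN93G and 147, 132 and 198 CPM on the HFD at ZT 0. Its libraries of ZT 8 were at 173, 132 and 147 CPM on AIN93G and 114, 91.3 and 142 CPM on the HFD (log2 fold change -0.49, adjusted p = 0.031). The other 8 translocon genes did not pass. The small channel subunits Sec61b and Sec61g had values of -0.35 and -0.19, the channel partners Sec62 and Sec63 0.11 and -0.10, and the 4 subunits of the translocon-associated complex, Ssr1, Ssr2, Ssr3 and Ssr4, -0.43, -0.29, -0.34 and -0.24.

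**Figure D2:**
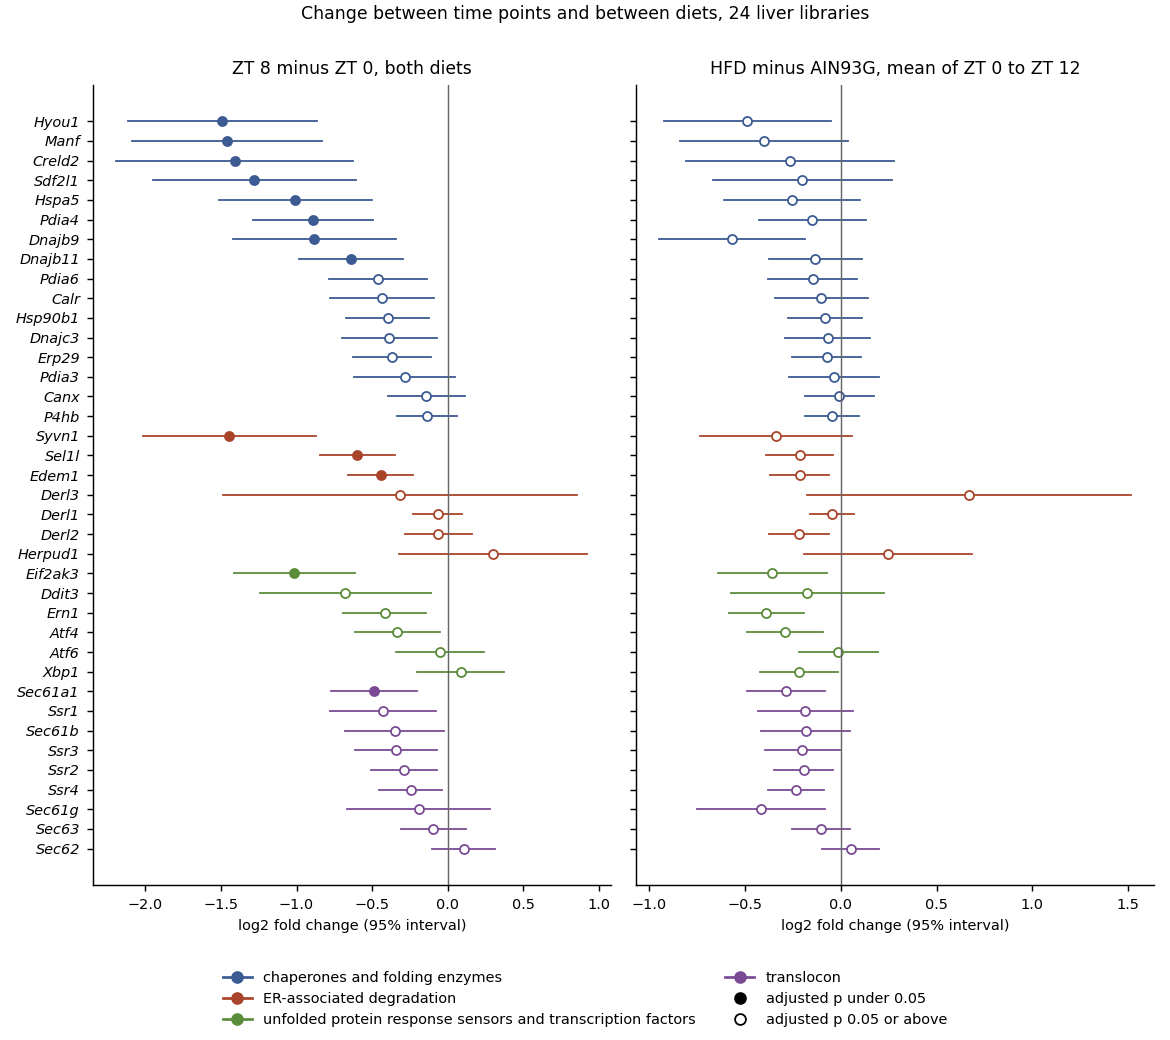
Log2 fold change of the 38 ER genes with its 95% interval (horizontal axes), for ZT 8 against ZT 0 (left) and for the HFD against AIN93G averaged over ZT 0 to ZT 12 (right), in 24 liver libraries and ordered by role; filled points have an adjusted p under 0.05. On the left 13 points are filled, all below 0, and on the right none is.

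Within each diet the same comparison had 3 libraries a side. On AIN93G, 16 of the 38 genes had all libraries of ZT 8 below all of ZT 0, against 11.3% of all genes, and on the HFD 18 did, against 10.4%. Over both diets together 6 genes did so (Calr, Pdia4, Sdf2l1, Dnajb11, Manf and Syvn1), against 2.92%. In fits of either diet alone no member passed, with 18 members at an unadjusted p under 0.05 on AIN93G and 16 on the HFD, so the calls rest on both diets together. Leaving out replicate 3 of AIN93G at ZT 0 left 8 calls of the 13, and leaving out ZT 12 gave 18. Without ZT 12 the number of all genes called also rose, from 1122 to 1551. In the 6 libraries of ZT 0 and of ZT 8 the summed level of 20 hepatocyte markers was 164911 to 184905 and 160269 to 221012 CPM, that of 12 adipocyte markers 946 to 2236 and 1330 to 2117 CPM, and that of 10 macrophage markers 668 to 1529 and 622 to 933 CPM. Between these times all 10 macrophage markers had a negative value (median -0.24, 2 at an unadjusted p under 0.05, none past the threshold), 11 of 12 adipocyte markers a positive one (median 0.69, 2 past the threshold) and 10 of 20 hepatocyte markers a negative one (median 0.01, 1 past the threshold, higher). The part of cell content in the fall was not tested, and fewer cells of a type and less RNA per cell cannot be told apart in bulk tissue. Of the genes that fell, 3 were among the 9 with an ERSE (Syvn1, Hspa5 and Creld2), 7 among the 22 with a promoter sequence but no ERSE, and 3 among the 7 without a sequence.

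The diet with liver libraries at all times, the HFD, allowed the whole day to be followed. Over its 6 time points from ZT 0 to ZT 20, time of day was past the threshold for 1 of the 38 genes, Atf4, against 2.29% of all genes tested, with 14 members and 2687 of all genes at an unadjusted p under 0.05. Atf4, the transcription factor translated when PERK is active, was at 87, 86.6 and 92.8 CPM at ZT 0, 88.5, 84.6 and 92 CPM at ZT 4 and 67.3, 61.7 and 63.2 CPM at ZT 8. It was at 118, 90.9 and 114 CPM at ZT 12, 128, 98.4 and 155 CPM at ZT 16 and 100, 107 and 110.5 CPM at ZT 20. The 3 libraries of ZT 8 were the lowest of the 18, and the mean of ZT 16 was 1.99 times that of ZT 8 (adjusted p = 0.0158 for time of day). Without ZT 12 the count was 6 (Atf4, Dnajb9, Hyou1, Syvn1, Eif2ak3 and Ddit3), against 602 of all 13394 genes (307 with ZT 12). Without replicate 2 or 3 of ZT 12 the count of members was 5 or 6, without replicate 2 of ZT 16 it was 4 and without replicate 1 of ZT 8 it was 2. Atf4 was among the calls in each.

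In 25 of the 38 genes the lowest mean on the HFD was at ZT 8, against 22.97% of all genes tested, and in 14 the highest mean was at ZT 16, against 16.5%. Without ZT 12 these were 26 genes, against 27.2%, and 19 genes, against 24.1%. A component with a period of 24 h was past the threshold for 6 members, Hyou1, Sel1l, Syvn1, Herpud1, Atf4 and Ddit3, against 7.79% of all genes, and a component of 12 h for none, against 0.00747% (with 8 members and 1365 of all genes at an unadjusted p under 0.05, and 1 member called by DESeq2). The fitted peak lay between ZT 17.4 and ZT 20.5 for Atf4, Ddit3, Syvn1, Hyou1 and Sel1l, and without ZT 12 between ZT 18.4 and ZT 20.6. For Herpud1 it lay at ZT 11.4, and without ZT 12 at ZT 11.2. This gene was at 394, 335 and 387 CPM at ZT 0, 168, 421 and 315 at ZT 4, 695, 426 and 322 at ZT 8, 885, 647 and 379 at ZT 12, 344, 422 and 619 at ZT 16 and 281, 204 and 223 at ZT 20. The 24 h count rests on few libraries. Without replicate 1 of ZT 20 or replicate 2 of ZT 8 it was 1, without replicate 3 of ZT 20 or replicate 3 of ZT 4 it was 2, and without replicate 3 of ZT 16, replicate 1 of ZT 4 or replicate 3 of ZT 8 it was 3. Atf4 alone was called in all 18 such fits. Without ZT 12, a fit chosen after the clock genes of that time were seen, it was 4 (Hyou1, Syvn1, Atf4 and Ddit3), so the calls of Herpud1 and Sel1l were lost. Of all genes 1017 passed there, against 1043 with ZT 12.

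The remaining times on the HFD gave the following levels of the members that have a low p for time of day. Hspa5 was at 806, 1284 and 1045 CPM at ZT 4, 1480, 688 and 1272 CPM at ZT 12, 1313, 1203 and 2092 CPM at ZT 16 and 1579, 871 and 1258 CPM at ZT 20. Hyou1 was at 156, 239.7 and 172 CPM at ZT 4, 282, 109.6 and 208 CPM at ZT 12, 254, 233 and 448 CPM at ZT 16 and 247, 146 and 218 CPM at ZT 20. Their 3 libraries of ZT 8 hold the lowest value of the day for Hspa5 and the lowest pair for Hyou1, and replicate 3 of ZT 16 the highest value of both. Syvn1 was at 76.9, 86.9 and 97.5 CPM at ZT 4, 164, 54.8 and 114 CPM at ZT 12, 125, 108 and 268 CPM at ZT 16 and 125, 89.8 and 108 CPM at ZT 20, with all 3 libraries of ZT 8 below every library of ZT 16 and ZT 20. Sel1l was at 234, 240.5 and 262 CPM at ZT 0, 194, 186 and 182 CPM at ZT 4 and 194, 149 and 209 CPM at ZT 8 and at 195, 169.9 and 170.0 CPM at ZT 12, 197, 237 and 279 CPM at ZT 16 and 318, 226 and 234 CPM at ZT 20. Its highest mean was at ZT 20 and its lowest at ZT 12. Dnajb9, at 92.8, 59.8 and 109 CPM at ZT 16 and 76.2, 45.6 and 53.1 CPM at ZT 20, had low values at ZT 4 as well as at ZT 8. Eif2ak3 was at 16.3, 12.3 and 19 CPM at ZT 4, 23.3, 16.4 and 18.7 CPM at ZT 12, 24.6, 16 and 27.3 CPM at ZT 16 and 20.7, 18.5 and 16.2 CPM at ZT 20, all below its highest library of ZT 0. Ddit3 was at 9.47, 14.1 and 9.62 CPM at ZT 0, 6.28, 5.07 and 5.8 CPM at ZT 4 and 8.23, 4.59 and 5.64 CPM at ZT 8 and at 15.4, 5.33 and 14.8 CPM at ZT 12, 9.78, 10.6 and 21.8 CPM at ZT 16 and 10.4, 11 and 9.55 CPM at ZT 20, and of the 3 libraries of ZT 12, 1 lay in the range of ZT 4 and ZT 8 and 2 lay above it.

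Dark libraries of ZT 16 and ZT 20 were set against light libraries of ZT 4 and ZT 8 on the HFD, 6 against 6. Here 5 members rose and none fell, against 2.3% of all genes that rose and 2.69% that fell, and the median log2 fold change was 0.28 for the 38 genes and 0.00 for all genes. Atf4 rose from 61.7 to 92 CPM (median 76) in the light to 98.4 to 155 CPM (median 109) in the dark (log2 fold change 0.62 with an SE of 0.10, adjusted p = 0.00262). Ddit3, low throughout, rose from 4.59 to 8.23 CPM to 9.55 to 21.8 CPM (log2 fold change 1.01 with an SE of 0.25, adjusted p = 0.0283). These are the only 2 members whose groups did not overlap, and both were higher in the dark. Of all 13394 genes 1.15% were higher without overlap (154 genes), and 181 genes were lower without overlap. Syvn1 rose 1.97-fold, Hyou1 2.01-fold and Sel1l 1.33-fold (adjusted p = 0.0239, 0.029 and 0.0456). Just outside the threshold were Dnajb9 (0.78, adjusted p = 0.0503) and Hspa5 (0.76, adjusted p = 0.0647).

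Single libraries decided this count too, except for Atf4, which was called in all 18 fits without 1 library. The count was 1 without replicate 3 of ZT 16, replicate 1 of ZT 20 or replicate 2 of ZT 8, 2 without any of the replicates of ZT 4, and 3 without replicate 2 or 3 of ZT 20 or replicate 3 of ZT 8. Without ZT 12, which enters only the estimate of spread, it was 8, with 826 of all genes called against 668 with ZT 12. Replicate 3 of ZT 16 was the highest of its group for 36 of the 38 genes, against 34% of all genes, with Hspa5 at 2092 CPM against 1313 and 1203 CPM, and replicate 2 of ZT 8 was the lowest of its group for 28, against 33.5%. The sum of adipocyte markers was 1152 to 2117 CPM in the light and 882 to 2464 CPM in the dark libraries, and 1 of its 12 genes, Lpl, was lower in the dark (-0.84, adjusted p = 0.034). The sum of 10 pancreatic acinar markers was 34.6 to 82.5 CPM in the light and 21 to 36.2 CPM in the dark, and the only one that could be tested, Cela1, was lower in the dark (-0.91, adjusted p = 0.0166). Macrophage markers summed to 591 to 957 and 526 to 902 CPM. Their part in the rise was not tested.

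**Figure D3:**
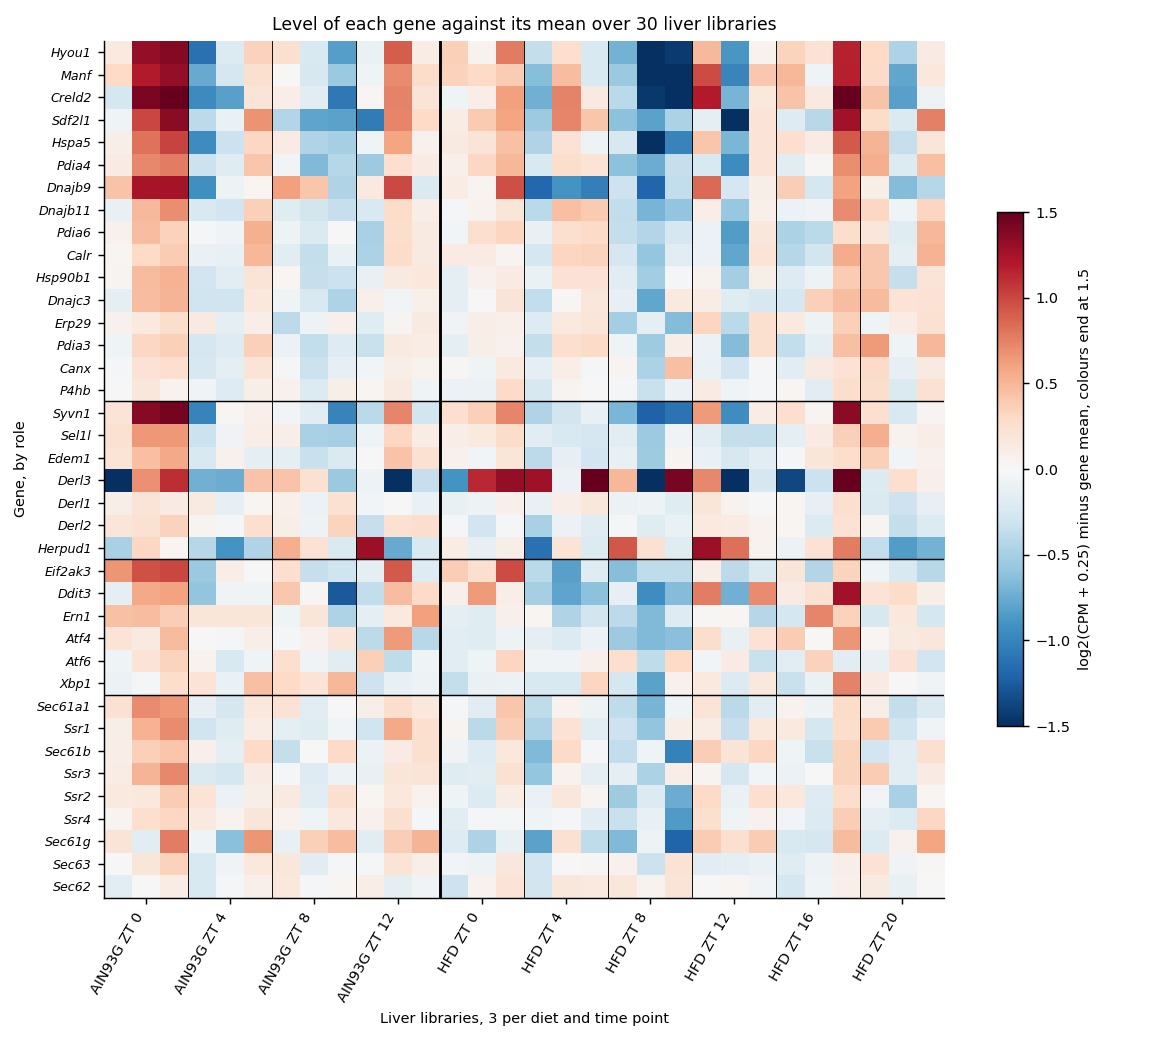
Level of each ER gene (rows, by role) in each of the 30 liver libraries of ZT 0 to ZT 20 (columns, grouped by diet and time point), as log2(CPM + 0.25) minus the mean of the gene; red is above and blue below that mean. In some columns most chaperones are red or blue, as for replicate 3 of the HFD at ZT 16, highest of its group for 36 of the 38 genes, and replicate 1 of AIN93G at ZT 0, lowest of its group for 35.

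Most chaperone genes varied together between mice of the same group, and of the other ER genes some followed Hspa5 and some did not. As deviations from the group mean of log2(CPM + 0.25) over the 30 liver libraries of ZT 0 to ZT 20, which share their scaling within a library, pairs of genes had a median Pearson r of 0.68 among the 16 chaperones, 0.37 among translocon genes, 0.33 among degradation genes and 0.26 among sensors and factors (Spearman rho of 0.70, 0.39, 0.33 and 0.26). With Hspa5, r was 0.96 for Hyou1 and 0.92 for Manf, but 0.23 for the chaperone Erp29, 0.29 for Herpud1, -0.002 for Atf6 and -0.09 for Ern1. Other genes outside the chaperones followed it more closely, at 0.86 for Syvn1, 0.76 for Ssr3 and 0.75 for Sel1l. Among the chaperones r was 0.64 for Dnajc3 and 0.68 for Canx. The groups of ZT 12, which mix libraries with unlike clock genes, are included. At ZT 0 on AIN93G, replicate 1 was the lowest of the 3 libraries for 35 of the 38 genes, against 36.4% of all genes tested, and replicate 3 the highest for 31, against 31.5%. Hyou1 was at 222, 502 and 522 CPM in these 3 libraries and Creld2 at 38.8, 125 and 134 CPM. All 16 chaperones were lowest in replicate 1 of ZT 0 on AIN93G and in replicate 1 of ZT 4 on the HFD (where 35.6% of all genes were lowest), and all 16 were highest in replicate 3 of ZT 16 on the HFD. At ZT 12 on AIN93G, replicate 2, one of the libraries with clock genes as at ZT 0, was highest for 25 genes, against 31.9% of all genes, among them Hspa5 at 1665 CPM against 1055 and 1154 CPM. The genes that vary together are therefore not separate tests of a difference between groups of 3 mice.

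On AIN93G, liver libraries were at hand for ZT 0, ZT 4, ZT 8 and ZT 12. Time of day was past the threshold for no member and no gene of the 13394 (0%), with 16 members and 1286 genes at an unadjusted p under 0.05; DESeq2 called 4 members, Manf, Sel1l, Syvn1 and Edem1. In 35 of the 38 genes the highest of the 4 means was at ZT 0, against 26.6% of all genes tested, and without ZT 12 it was also 35, against 34.7%. The members of lowest p were Edem1, at 335, 396 and 431 CPM at ZT 0, 248, 304 and 266 at ZT 4, 264, 230.4 and 250.3 at ZT 8 and 292, 391 and 341 at ZT 12 (adjusted p = 0.258), and Manf (adjusted p = 0.258). Without ZT 12 the call was Eif2ak3, and without replicate 1 of ZT 12 it was Edem1, 1 member in each. Of all 13394 genes 256 passed without ZT 12. Xbp1 was at 240.0, 250.3 and 306 CPM at ZT 0, 294, 238 and 349 at ZT 4, 313, 294 and 359.7 at ZT 8 and 206, 236 and 243 at ZT 12 on AIN93G, with its highest mean at ZT 8 (adjusted p = 0.515). On the HFD its mean was lowest at ZT 8 (209 CPM) and highest at ZT 16 (290 CPM). Its course was not tested against that of the chaperones.

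The other members named for their low p had these levels at ZT 4 and ZT 12 on AIN93G. Hspa5 was at 575, 884 and 1370 CPM at ZT 4 and 1055, 1665 and 1154 CPM at ZT 12, Hyou1 at 92.6, 174 and 254 CPM at ZT 4 and 188, 377 and 216 CPM at ZT 12 and Syvn1 at 52.4, 107 and 111 CPM at ZT 4 and 79.3, 175 and 86.9 CPM at ZT 12. In all 3 genes replicate 1 of ZT 4 was the lowest library of that group and replicate 2 of ZT 12 the highest of its own. Eif2ak3 was at 14.6, 23.3 and 21.6 CPM at ZT 4 and 19.5, 41.3 and 18.9 CPM at ZT 12, with replicate 2 of ZT 12 inside the range of ZT 0. Ddit3 was at 8.16, 13.4 and 13.7 CPM at ZT 0, 5.89, 8.67 and 8.55 CPM at ZT 4, 11.9, 9.1 and 3.6 CPM at ZT 8 and 6.9, 12.5 and 11 CPM at ZT 12. Sec61a1 was at 136, 125 and 166 CPM at ZT 4 and 158, 178 and 165 CPM at ZT 12, below the lowest library of ZT 0 except for replicate 2 of ZT 12. Atf4 was at 113, 107 and 136 CPM at ZT 0 and 98.2, 97 and 105 CPM at ZT 4. At ZT 12 Atf4 was at 74.5, 152 and 73.5 CPM. Herpud1 was at 260, 450 and 372 CPM at ZT 0 and 271, 195 and 265 CPM at ZT 4. At ZT 8 Herpud1 was at 531, 423 and 313 CPM and at ZT 12 at 883, 215 and 311 CPM. On the HFD, Xbp1 was at 199.7, 238 and 239 CPM at ZT 0, 218, 218 and 319 CPM at ZT 4 and 213, 146 and 266 CPM at ZT 8 and at 282, 222 and 284 CPM at ZT 12, 202, 238 and 428 CPM at ZT 16 and 278, 255 and 246 CPM at ZT 20, lowest in replicate 2 of ZT 8 and highest in replicate 3 of ZT 16.

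The question of the study, the effect of the fat content of the diet, could be put in liver at ZT 0, ZT 4, ZT 8 and ZT 12, with 12 libraries per diet. Averaged over these times no member differed between the diets, against 0.0523% of all genes that were higher and 0.0597% that were lower on the HFD (7 and 8 genes). With DESeq2, and also without replicate 1 of AIN93G at ZT 12, 1 member passed, Ern1, and without ZT 12 it was Atf4, where 67 of all genes passed. In 35 of the 38 genes the value was negative, against 51.6% of all genes, and the median log2 fold change was -0.19, against -0.005 for all genes. Without ZT 12, 33 genes had a negative value, against 50.1%, and the median was -0.17, against -0.001. At an unadjusted p under 0.05 there were 14 members and 1037 of all genes. In the same fit all 10 macrophage and Kupffer cell markers had a positive value (median 0.21, 4 at an unadjusted p under 0.05, none past the threshold), with summed levels of 605 to 849.9 CPM on AIN93G and 591 to 1529 CPM on the HFD. The 20 hepatocyte markers had a median of -0.05 and the 12 adipocyte markers one of -0.29, and the part of cell content in the lower values was not tested.

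The member of lowest p was Ern1, which encodes IRE1. It was at 148, 149.8 and 141 CPM at ZT 0, 123, 124 and 123 at ZT 4, 104, 123 and 78.8 at ZT 8 and 98.6, 121 and 166 at ZT 12 on AIN93G. On the HFD it was at 98.4, 96 and 115 CPM at ZT 0, 111, 79.4 and 90.2 CPM at ZT 4, 82.8, 68.9 and 95.2 CPM at ZT 8 and 111, 111 and 80.8 CPM at ZT 12. The diets did not overlap at ZT 0 and ZT 4 and did at ZT 8 and ZT 12 (log2 fold change -0.39 with an SE of 0.09, adjusted p = 0.125). Dnajb9, a target of XBP1, was at 96.9, 169 and 170.4 CPM at ZT 0, 37.7, 67.9 and 73.1 CPM at ZT 4, 109.9, 95.7 and 52.4 CPM at ZT 8 and 79.3, 143 and 61.5 CPM at ZT 12 on AIN93G. On the HFD it was at 77.6, 74 and 140.5 CPM at ZT 0, 31.6, 38.4 and 35.2 CPM at ZT 4, 57.8, 31.4 and 55.5 CPM at ZT 8 and 129, 60.4 and 76 CPM at ZT 12, with overlap at every time (log2 fold change -0.56 with an SE of 0.18, adjusted p = 0.347). Ssr4, a subunit of the translocon-associated complex, was at 81.2 to 105 CPM (median 90.8) on AIN93G and 46.9 to 100 CPM (median 80.9) on the HFD, which overlapped over all times together (-0.23, adjusted p = 0.286). Taken by time, the diets did not overlap for Ssr4 at ZT 0, ZT 4 and ZT 8 and did at ZT 12. Sec61a1 had -0.29, Edem1 -0.21 and Atf4 -0.29 on the log2 scale, with adjusted p-values of 0.392, 0.392 and 0.351.

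Diet and time together gave no call either. The interaction was past the threshold for no member and no gene (0%), with 2 members, Ssr2 and Atf4, and 717 genes at an unadjusted p under 0.05 and no member called by DESeq2. Without ZT 12 it was also past the threshold for no gene, with 1 member, Atf4, and 467 genes at an unadjusted p under 0.05. At ZT 0, ZT 4 and ZT 12 no gene passed in either direction (0%), and no member by DESeq2. There 6, 3 and 2 members were at an unadjusted p under 0.05, against 525, 343 and 916 of all 13394 genes. At ZT 8 no member passed, with 8 members and 1516 of all genes at an unadjusted p under 0.05, and 1 gene of all (0.00747%) was lower on the HFD. Members with every HFD library below every AIN93G library numbered 8 at ZT 0 (background 6.44%), 4 at ZT 4 (3.57%), 8 at ZT 8 (6.29%) and 3 at ZT 12 (5.57%). No member lay the other way at any of these times, against 868, 510, 846 and 587 of all 13394 genes in the same order of times. The 8 at ZT 8 were Pdia6, Dnajb11, Manf, Eif2ak3, Xbp1, Atf4, Ssr2 and Ssr4. Atf4 was at 96.3, 102 and 112 CPM on AIN93G and 67.3, 61.7 and 63.2 CPM on the HFD there (log2 fold change -0.68 with an SE of 0.19, adjusted p = 0.287). Without ZT 12, or without replicate 2 of AIN93G at ZT 12, Atf4 passed, and without ZT 12 it was among 5 of all genes that did. Xbp1 was at 313, 294 and 359.7 CPM on AIN93G and 213, 146 and 266 CPM on the HFD at ZT 8 (-0.62, adjusted p = 0.296).

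Derl3 varied widely between libraries and passed in none of the comparisons above. Its libraries ran from 0.586 to 10.6 CPM in liver, or 9 to 181 counts, and at ZT 8 on the HFD alone it was at 4.88, 0.828 and 9.51 CPM. Over ZT 0 to ZT 12 it had a log2 fold change between the diets of 0.67 with a 95% interval from -0.18 to 1.51. The summed level of 12 plasma cell and B cell markers was 16.2 to 36.2 CPM on AIN93G and 12.4 to 27.8 CPM on the HFD in these libraries.

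At ZT 16 and ZT 20 the HFD libraries were liver and the AIN93G libraries adipocyte-rich, so diet and tissue content cannot be told apart. At ZT 16, 32 of the 38 genes were higher on the HFD and none was lower, against 27.7% of all genes higher and 28% lower. At ZT 20, 31 were higher and 2 lower, against 28.4% and 30.2%. Scaling to library size alone, which moved the median of all genes to -0.85 and -0.67 on the log2 scale, gave 21 higher and 2 lower at ZT 16 and 22 higher and 4 lower at ZT 20. In the same libraries 12 of 12 adipocyte markers were lower at both times, with summed levels of 19458 to 35128 CPM in the AIN93G libraries, and 19 and 20 of 20 hepatocyte markers were higher. No library overlapped for 32 members at each of the 2 times (higher on the HFD), against 32.4% of all genes at ZT 16 and 32.4% at ZT 20.

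Herpud1 had the lowest p of all members at both times. It was at 46, 50.6 and 44 CPM in the AIN93G libraries and 344, 422 and 619 CPM in the HFD libraries at ZT 16, 9.91 times higher (adjusted p = 4.63e-05). P4hb was 6.32 times higher and Hspa5 4.47 times higher, Hspa5 being at 300, 438 and 302 CPM and 1313, 1203 and 2092 CPM. Ern1 was 5.56 times higher at ZT 16 and 4.81 times higher at ZT 20, and Xbp1 2.39 and 1.75 times. The log2 values of the translocon genes were at most 1.52 at ZT 16 (Sec61a1) and 1.36 at ZT 20 (Sec63, a J protein of the channel). With library size only, the calls of Atf6, Derl3, Pdia3, Pdia6, Xbp1, Sec61b, Sec62, Ssr1, Ssr2, Ssr3 and Ssr4 at ZT 16, and of Atf6, Dnajb9, Xbp1, Sec61a1, Sec61b, Sec61g, Sec62, Ssr3 and Ssr4 at ZT 20, were lost.

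A few members did not pass at one or both times, and this depends on the scaling: with library size only, Derl1 and Erp29 were called lower on the HFD at ZT 16, and Derl1, Erp29, Eif2ak3 and Ddit3 at ZT 20. With TMM scaling, Derl1 was at 188, 161 and 155 CPM in the adipocyte-rich and 167, 151 and 196 CPM in the liver libraries of ZT 16 (0.04, 95% interval -0.36 to 0.43), and at ZT 20 it was lower in liver (-0.76, adjusted p = 0.00274). Ddit3 was at 16.2, 19.1 and 11.2 CPM in the adipocyte-rich and 10.4, 11 and 9.55 CPM in the liver libraries of ZT 20 (-0.59, adjusted p = 0.0472), and its value at ZT 16 was 0.07. This call was lost with DESeq2 (32 members higher and 1 lower) and in 5 of the 6 fits without 1 library, all but that without replicate 3 of AIN93G, whereas Derl1 was called in each of them. Erp29, Eif2ak3 and Atf4 passed at neither time, with log2 values of -0.15, 0.46 and 0.54 at ZT 16 and 0.04, -0.08 and 0.21 at ZT 20. Derl3 was at 9 to 26 counts in the adipocyte-rich libraries of ZT 16 and 4 to 13 in those of ZT 20.

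**Figure D4:**
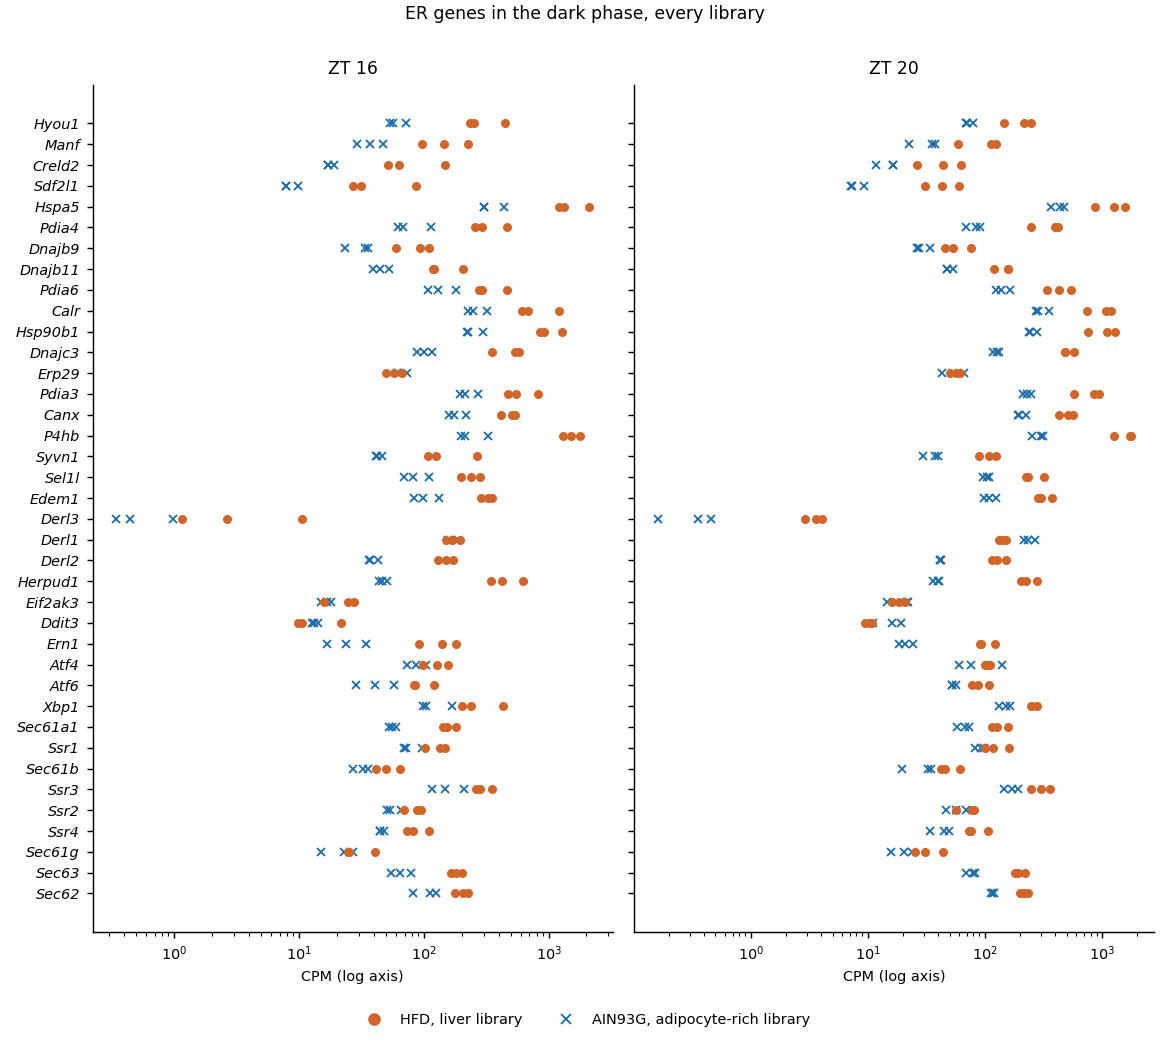
Level of each ER gene in every library of ZT 16 (left) and ZT 20 (right), in CPM on a log axis, for HFD liver libraries (circles) and AIN93G adipocyte-rich libraries (crosses), by role. Most circles lie to the right of the crosses; at ZT 20 the order is reversed for Derl1 and Ddit3.

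At ZT 24 each diet kept 1 liver library, so no test was made. On the HFD replicate 3 had Hspa5 at 1836 CPM, Hyou1 at 370.0 CPM and Herpud1 at 805 CPM, and on AIN93G replicate 3 had them at 734, 82.1 and 554 CPM. Neither library had clock genes as at ZT 0: Dbp was at 77.1 and 174 CPM and Arntl at 1.29 and 0.874 CPM, beside 70.1 to 114 and 1.04 to 1.98 CPM in the 3 libraries of ZT 12 whose clock genes differed from those of ZT 0. Whether labels of ZT 12 and ZT 24 were exchanged was not tested. The 4 adipocyte-rich libraries of ZT 24 had Hspa5 at 237 to 296 CPM.

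Other genes of the same pathways were read from further lists, all between ZT 0 and ZT 8 in both diets, where 4.23% of all genes fell and 4.14% rose; no list was tested as a whole. Of 21 further folding enzymes 4 fell, Hspa13 (an Hsp70 of the ER, -1.005, adjusted p = 0.00843), Mogs (glucosidase I of glycoprotein trimming, -0.49, adjusted p = 0.0114), Uggt1 (the folding sensor of glycoproteins, -0.49, adjusted p = 0.0428) and Ero1lb (the oxidase of disulfide isomerases, -0.62, adjusted p = 0.0487). Of 19 further degradation genes 4 fell and 1 rose, led by Ube2g2, a ubiquitin-conjugating enzyme (-0.74, adjusted p = 0.000824), Ubxn4 and Edem3. Of 12 oligosaccharyltransferase genes 2 fell, the catalytic subunit Stt3b (-0.65, adjusted p = 0.00119) and Ostc (-0.67, adjusted p = 0.019). Of 15 genes of signal recognition, signal peptidase and translocon partners 3 fell, Spcs2 (-0.74, adjusted p = 0.00657), Srp68 and Srprb, and of 20 genes of transport from the ER to the Golgi 3 fell, Preb, Sec23b and Sec24d. Erlec1, a lectin of degradation, was the 1 gene of these lists that rose (0.39, adjusted p = 0.0391).

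Among 13 further regulators, Atf6b (-0.76, adjusted p = 0.00447) and Creb3l2, an ER-bound factor related to ATF6 (-1.03, adjusted p = 0.00603), fell and Ppp1r15b, which restores translation, rose (0.38, adjusted p = 0.0256). Of 18 listed target genes of PERK and ATF4, 16 could be tested, 1 fell (Atf5, -0.97, adjusted p = 0.0191) and the 16 had a median of -0.26. In the dark against the light on the HFD, 8 of these 16 had a negative and 8 a positive value (median 0.06). Trib3, a target of ATF4 and CHOP, was the 1 that passed and was lower in the dark (-1.75, adjusted p = 0.00977, where 2.69% of all genes fell). Atf3, a stress-induced factor, had a positive value (1.06, adjusted p = 0.0598) and Chac1 a negative one (-1.555, adjusted p = 0.0655), and neither passed. Between the diets 1 of these 16 genes differed over ZT 0 to ZT 12: Nupr1, a stress-induced cofactor of transcription, was lower on the HFD (-1.07, adjusted p = 0.0486), as were 0.0597% of all genes, at a mean of 1.55 CPM against 3.37 CPM on AIN93G. Of 11 heat shock genes (9 cytosolic, with the mitochondrial Hspd1 and Hspe1), 3 fell from ZT 0 to ZT 8 (Hspa1b, Dnajb1 and Hsph1) and 6 rose in the dark on the HFD (where 2.3% of all genes rose), led by Dnajb1 (0.85, adjusted p = 0.0016), Hspb1 (1.96, adjusted p = 0.00334) and Hsph1 (0.97, adjusted p = 0.00594). Hspa1b has a near-identical neighbour, Hspa1a, so its counts are uncertain. All 13 clock genes differed between ZT 0 and ZT 8, led by Nr1d1 (3.92, adjusted p = 0.000125). Of the cell type lists, 1 of 20 hepatocyte genes (Cyp2e1) and 2 of 12 adipocyte genes (Pnpla2 and Lipe, which liver also expresses) rose, and no gene of the macrophage, plasma cell, mammary or pancreatic lists passed.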

How the data were processed

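RNA of 42 samples labelled liver was sequenced, and the authors deposited 1 table of raw read counts per gene, not normalized, for 54532 Ensembl genes. The submitters' processing notes name fastp, STAR, HTSeq 0.6.1, DESeq, STAR-Fusion and the build mm10. The 38 genes were taken by gene symbol. The members and lists were chosen with earlier results of these data known. Libraries held 14592481 to 21368409 counts, and the 32 with Alb over 10000 CPM were treated as liver. Testing covered the 13394 genes that averaged 25 or more counts in the 42 libraries, with TMM scaling and the edgeR 4.0.16 quasi-likelihood test in R 4.3.3, adjusted by Benjamini-Hochberg over all of them, with a threshold of 0.05. Time and diet over ZT 0 to ZT 12 used the 24 liver libraries of these times, time on the HFD the 18 liver libraries of ZT 0 to ZT 20, and each diet at ZT 16 and ZT 20 its 6 libraries. Intervals are 95% intervals of the fit. The p-values set a difference against the spread between libraries of a group. In fits with ZT 12 this spread includes groups that mix libraries with unlike clock genes. All 38 genes are named. Values per library, or their lowest, median and highest, are given for Hspa5, Xbp1, Atf4, Ddit3 and Derl3, the 8 members of lowest p for time on the HFD and the 6 of lowest p for diet. They are given at the times named and not always at every time on both diets. The other lists are given by their calls and up to 3 genes of lowest p. Ero1lb, Erlec1 and the promoter of Herpud1 were chosen after their values were seen. Alternatives were DESeq2 1.42.0, scaling to library size, other filters, limma 3.58.1 (voom) with and without the title number as a block, leaving out each library and leaving out ZT 12. Promoters came from RefSeq (GRCm38.p6). The scripts were tested on simulated data. Pairs of libraries were compared, and no pair agreed within sampling noise.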

Additional observations from a re-analysis of the deposited data

How the results depend on the processing

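Counts of ER genes past the threshold moved with the processing. A number in the sample titles recurs at several times within a diet, but the labels do not say what it marks, and 2 groups share at most 1 such number. As a fixed block it left 0 residual degrees of freedom. As a random replicate block in limma voom, added after seeing the data, it gave 14 members for ZT 8 against ZT 0, 5 for the 24 h component, 5 for dark against light and 4 for time on the HFD, against 14, 4, 4 and 2 in limma voom without it, and 0 in the other comparisons of ZT 0 to ZT 20 fitted in both ways. With DESeq2 the count was 1 for the 12 h component, 10 for the 24 h component, 8 for dark against light, 9 for time of day on the HFD, 4 for time of day on AIN93G and 1 for diet over ZT 0 to ZT 12. With no filter on low counts these were 9, 18, 13, 17, 10 and 4, and 3 for diet at ZT 8. The number of all genes called moved too. For the 12 h component, the 24 h component and dark against light it was 75, 1800 and 1047 with DESeq2. With no filter it was 544, 2190 and 1262 of 28586 genes, against 1, 1043 and 668 of 13394 in the main fit. Without ZT 12 the members called were 8 for dark against light (826 of all genes), 6 for time on the HFD (602), 1 for time on AIN93G (256), 1 for diet over ZT 0 to ZT 12 (67) and 1 for diet at ZT 8 (5). This setting was added after seeing the data for diet at single times and for the 24 h component (4), the 12 h component (0), the fitted peaks, the places of the lowest and highest means and the medians. Time on the HFD gave 3 with at least 25 counts in every library and 4 with library size only. The 24 h component gave 3 with the ZT 24 liver library counted as ZT 0, a library whose clock genes were unlike those of ZT 0. The fits of AIN93G alone and HFD alone, chosen after seeing the data, gave 0 for ZT 8 against ZT 0. Leaving out 1 library at a time gave 8 to 16 for ZT 8 against ZT 0, 1 to 8 for the 24 h component, 1 to 7 for dark against light, 1 to 6 for time on the HFD, 0 to 1 for time on AIN93G, for diet over ZT 0 to ZT 12 and for diet at ZT 8, 26 to 34 for diet at ZT 16 and 30 to 33 for diet at ZT 20. The cause was not tested.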
